A study of Homo sapiens with 6 samples.

Results

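Heat shock chaperones and their partners were followed through RNA sequencing of EndoC-βH1 cells, an established line of human beta cells from the pancreas. The 42 genes, out of 26485 in the count table, were taken by name: heat shock factors, HSP70 and its exchange factors, HSP40 cochaperones, HSP90 and its cochaperones, small heat shock proteins and a few relatives. The set is called cytosolic, but not all of its proteins are: HSPD1, HSPE1, HSPA9, TRAP1 and DNAJA3 work in mitochondria, and SERPINH1 in the endoplasmic reticulum. HSF1 and HSF2 are transcription factors, and DEDD2 is a death effector domain protein, so none of these 3 is a chaperone.

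Chaperones hold unfolded proteins until they fold, refold them after damage or hand them to degradation. When unfolded protein builds up, heat shock factor 1 (HSF1) is released from chaperones, binds heat shock elements in promoters and switches on HSP70, HSP40, HSP90 and small heat shock protein genes within minutes. Beta cells make large amounts of secreted protein, and cytosolic chaperones serve the part of that load that has not yet entered the endoplasmic reticulum, along with all other cytosolic proteins.

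The study compared 3 libraries of cells transduced with an empty lentiCRISPRv2 plasmid (Empty; genotype given as WT) with 3 libraries of cells that received the same vector carrying sgZHX3-3, 1 guide aimed at the first coding exon of ZHX3 (genotype given as ZHX3 KO). ZHX3 encodes a zinc finger and homeobox transcription factor. Both groups were selected with antibiotic and grown as stable lines, so both carry vector, Cas9 and selection. The labels call the libraries biological replicates without saying whether they came from separate transductions or from cultures of 1 line; p-values here measure the spread between these libraries. No clone is mentioned, and a single guide leaves no second guide to compare with.

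Total counts ran from 45101454 to 61051884 per library, and 16199 genes passed the filter on low counts. The targeted gene itself had more RNA in the libraries labelled sgZHX3-3 than in Empty. ZHX3 lay at 106, 110 and 101 CPM (counts scaled to library size) in Empty 1, 2 and 3 and at 167, 180 and 183 CPM in sgZHX3-3 1, 2 and 3. Its log2 fold change was 0.75 (SE 0.0566, adjusted p = 1.62e-05 by edgeR's quasi-likelihood test with Benjamini-Hochberg adjustment). The count table does not show whether the exon was edited or protein lost, so groups are called here by their labels. The beta cell label was checked against 7 marker genes, and all 7 were found, with INS between 5206 and 7118 CPM and GCG, the alpha cell hormone gene, between 0.135 and 0.403 CPM. The 4 endothelial markers summed to at most 0.0802 CPM in any library, with CDH5 and KDR at 0. The 4 immune markers summed to 12.4 to 17.8 CPM in Empty and 17.2 to 21.2 CPM in sgZHX3-3, almost all of it CD68, a lysosomal gene of macrophages and other cells, with PTPRC at 0.0855 CPM or less and CD3E at 0.

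One feature of the libraries bears on almost every value that follows. Empty 2 and Empty 3 held more chaperone RNA than the other 4 libraries, while Empty 1 lay near the sgZHX3-3 libraries. Summed over the 42 genes, the level was 9909, 11656 and 12281 CPM in Empty 1, 2 and 3 and 10264, 10579 and 9479 CPM in sgZHX3-3 1, 2 and 3. That is 0.994, 1.19 and 1.25% of all counts in Empty and 1.02, 1.04 and 0.936% in sgZHX3-3, so the groups overlapped on the sum. Results are therefore given for all 6 libraries, without Empty 1, and without both Empty 2 and Empty 3. In the last of these fits Empty 1 is alone in its group and is assumed to vary like the other libraries. This pattern was noticed in the values, and the 24 genes counted by it below are a description. Leaving out Empty 1 drops an Empty library that lay near the sgZHX3-3 libraries, and with it much of the spread within Empty. Small p-values in that fit follow in part from this choice, so its calls describe the pattern and are not further support for a difference.

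**Figure D1:**
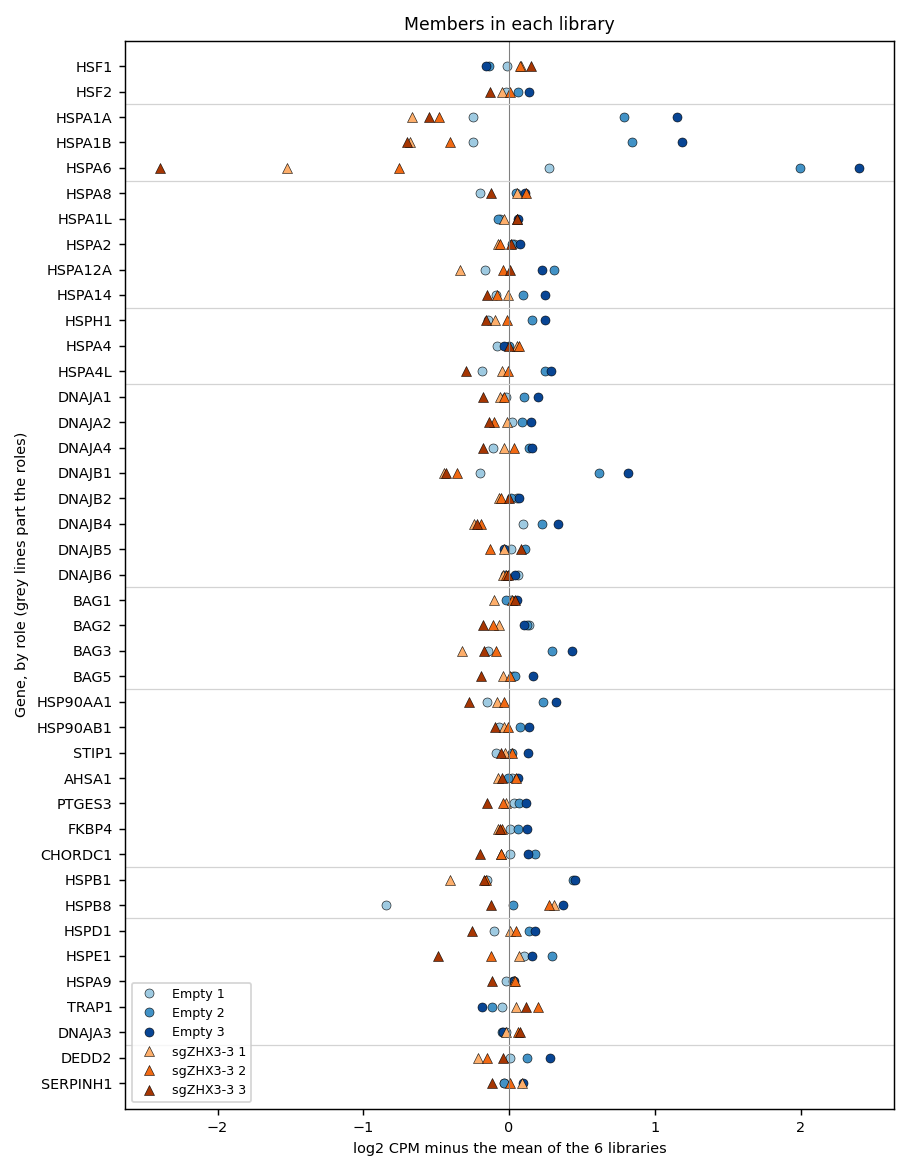
Level of each tested chaperone gene in each library, as log2 CPM minus the mean of the 6 libraries, grouped by role. Blue circles are Empty and orange triangles sgZHX3-3. Empty 2 and 3 stand to the right in 24 of 41 genes, farthest in HSPA1A, HSPA1B, HSPA6 and DNAJB1, and Empty 1 lies among or below the triangles in 23.

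Of the 42 genes, 41 passed the low count filter, each above the filter level in all 6 libraries. The exception was CRYAB, the small heat shock protein alpha-B crystallin, with 1 count in sgZHX3-3 2 and none elsewhere. With all 6 libraries, 5 of 41 were lower in sgZHX3-3 (HSPA6, DNAJB4, BAG2, CHORDC1 and DEDD2) and 2 were higher (HSF1 and TRAP1), at an adjusted p below 0.05. The 5 lower genes are 12.2% of those tested, against 4.98% of all genes tested. The 2 higher ones are 4.88%, against 7.11%. The fitted change was below 0 in 34 of 41 genes, against 8176 of all 16199, and the median log2 fold change was -0.14, against -0.00 over all genes tested. In 17 genes every sgZHX3-3 library lay below every Empty library, and in 4 every one lay above. The background for such separation was 16.0% of all genes in the downward direction and 16.0% in the upward one. In the remaining 20 genes the groups overlapped. DESeq2 called 12 genes lower: the same 5 and HSPA1A, HSPA1B, DNAJB1, BAG3, HSP90AA1, HSPB1 and HSPE1. It called 5.97% of all genes lower and 8.25% higher. Scaling by library totals alone gave 11 lower and 1 higher, while all genes went from 807 lower and 1151 higher to 1272 lower (7.85%) and 904 higher (5.58%).

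Both counts moved with the libraries used. Empty 2 and 3 lay above the other 4 libraries in 24 of 41 genes, against 19.0% of all genes. Without Empty 1, 20 of the 41 genes were lower in sgZHX3-3 (48.8%; 9.14% of all genes) and 2 were higher (4.88%; 10.9% of all genes), with a median of -0.17. Without any other single library, of either group, 1 or 2 of the 41 genes were lower and 0 or 1 higher. Calls over all genes were also fewer in those fits, at 184 to 744 lower and 474 to 1006 higher of 16324 to 16394 tested. When Empty 2 and 3 were left out, edgeR called 0 of 41 lower and 0 higher (0.240% and 1.26% of all genes), with a median of -0.03. That fit has 1 Empty library and called few genes of any kind, so its lack of calls says little about these 41. In bulk RNA, fewer cells that express a gene and less RNA per cell cannot be told apart.

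**Figure D2:**
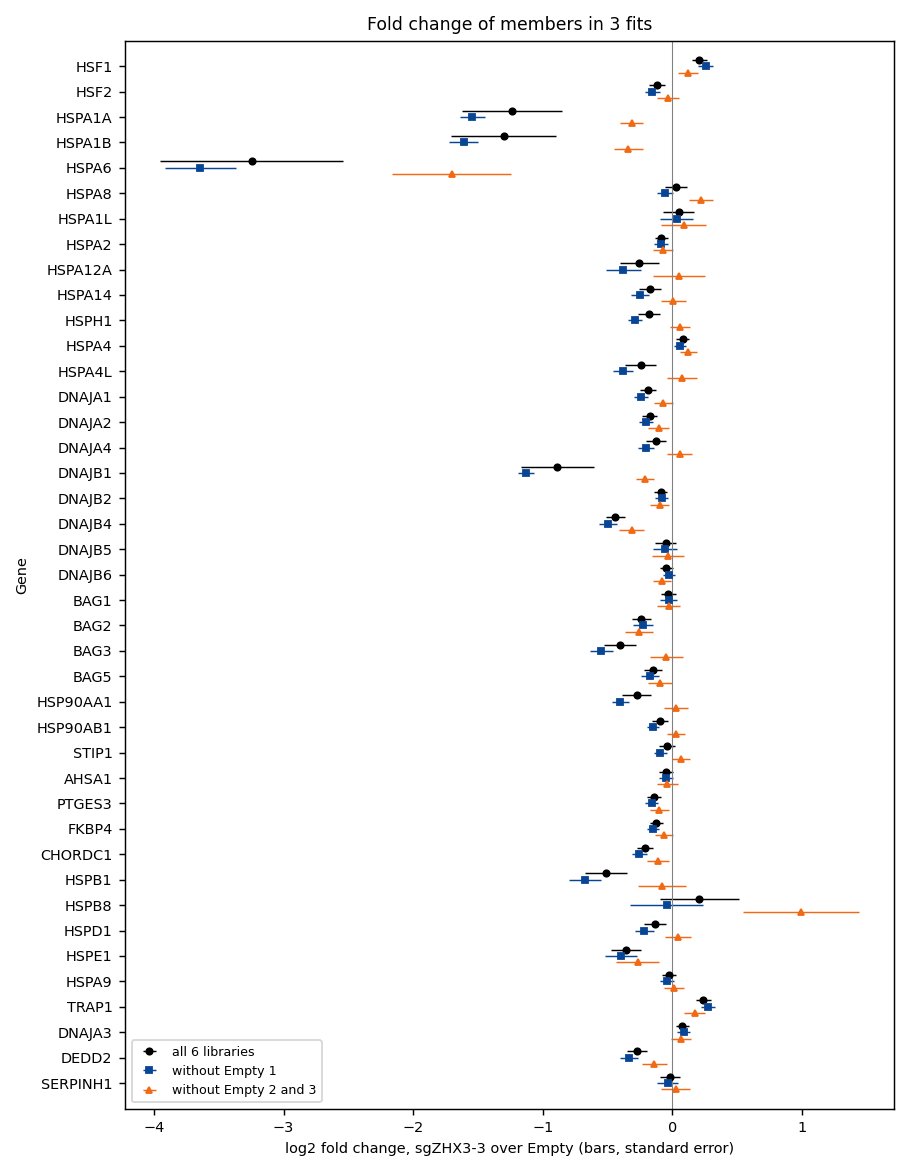
Log2 fold change of sgZHX3-3 over Empty for each tested chaperone gene in 3 fits, with standard errors as bars: all 6 libraries (black), without Empty 1 (blue) and without Empty 2 and 3 (orange). For HSPA1A the 3 values were -1.24, -1.54 and -0.31, and most orange points lie close to 0.

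Heat shock elements, the sequences HSF1 is known to bind, are built from inverted GAA units. A few promoter stretches are shown because such elements are what many of these genes have in common outside the RNA values. Windows from 250 bases before to 50 bases after each RefSeq gene start (GRCh38.p14) were searched on both strands for pairs of units, GAANNTTC or TTCNNGAA, and for 3 alternating units with the same spacing, which contain pairs. RefSeq windows were found for 38 of the 42 genes (56 windows). A pair occurred in 39.3% of these windows, against 13.5% of all 35116 windows, and 3 units in 16.1%, against 0.49%. By gene, 21 of 38 had a pair and 9 of 38 had 3 units. Stretches around the 3-unit matches are given 5′ to 3′ on the gene's strand, with the matched units and the bases between them in capitals. They belong to the 6 genes with the largest absolute fold change among those with a 3-unit match wholly before the gene start. DNAJA1, whose only 3-unit match lies past its start, is not shown, and stretches in annotated exons were shortened to 30 bases. Both limits were added after the windows were seen.
HSPA6: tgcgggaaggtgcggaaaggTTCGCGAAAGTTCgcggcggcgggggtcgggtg
HSP90AA1: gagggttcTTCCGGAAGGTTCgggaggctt
CHORDC1: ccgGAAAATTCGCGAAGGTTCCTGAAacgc
HSPD1: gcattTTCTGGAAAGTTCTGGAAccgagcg
HSP90AB1: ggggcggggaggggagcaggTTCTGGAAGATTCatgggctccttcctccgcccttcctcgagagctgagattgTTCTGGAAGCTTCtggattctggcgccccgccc
DNAJB6: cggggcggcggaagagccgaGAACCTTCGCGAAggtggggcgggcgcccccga
The stretches lie at chr1:161524446-161524498 (+) for HSPA6, chr14:102087111-102087140 (-) for HSP90AA1, chr11:90223083-90223112 (-) for CHORDC1, chr2:197500061-197500090 (-) for HSPD1, chr6:44247758-44247863 (+) for HSP90AB1 and chr7:157336853-157336905 (+) for DNAJB6. In CHORDC1 and HSPD1 overlapping matches run into longer arrays, and HSP90AB1 has 2 separate ones. HSPA1A and HSPA1B, on neighbouring stretches of chromosome 6, have a pair each and no 3-unit match in these windows. A match is a description of letters and does not show that a factor was bound there. Of the 5 genes lower in sgZHX3-3, 4 have a pair and 2 have 3 units. Of the 32 genes with a window that were not called, 17 have a pair and 7 have 3 units. TRAP1, the 1 higher gene with a window, has neither. Of the 16 genes with a window and sgZHX3-3 wholly below Empty, called or not, 9 have a pair and 3 have 3 units. A link between these matches and the RNA values was not tested.

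Of the heat shock factors, HSF1 was called and HSF2 was not; the difference between them was not tested. HSF1, the master activator of the response, lay at 71.4, 65.7 and 64.5 CPM in Empty 1, 2 and 3 and at 76.5, 76.0 and 80.3 CPM in sgZHX3-3 1, 2 and 3. All 3 sgZHX3-3 libraries were above all 3 Empty libraries, with Empty 2 and 3 the lowest. HSF1 was higher by 0.21 on the log2 scale (SE 0.0580, adjusted p = 0.0353 by edgeR). It was also called without Empty 1 (0.26, adjusted p = 0.00633 by edgeR), but without any other single library the adjusted p lay between 0.0580 and 0.179. In the fit without Empty 2 and 3 the value was 0.12 (adjusted p = 0.532 by edgeR). HSF1 exons overlap those of DGAT1 on the other strand; whether strand was used in counting reads is not stated. HSF2, a related factor that can form mixed trimers with HSF1, lay at 52.2, 55.4 and 58.2 CPM in Empty and at 51.2, 53.2 and 48.5 CPM in sgZHX3-3. Its groups overlapped and its log2 fold change of -0.12 was not called (adjusted p = 0.238 by edgeR).

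The stress-inducible HSP70 genes had the largest fitted changes of the set, and 1 of 3 was called. HSPA1A (chr6:31815464-31817946) encodes the main heat-induced HSP70. It lay at 90.8, 186 and 240.1 CPM in Empty 1, 2 and 3 and at 68.0, 77.2 and 73.7 CPM in sgZHX3-3 1, 2 and 3. HSPA1B (chr6:31827735-31830255), which encodes the same protein, lay at 92.0, 196 and 249 CPM in Empty and at 68.1, 82.5 and 67.2 CPM in sgZHX3-3. In both genes the groups did not overlap, but Empty 1 was far nearer to the sgZHX3-3 libraries than to Empty 2 and 3. HSPA1A in Empty averaged 172 ± 75.6 CPM (SD, n = 3), against 73.0 ± 4.62 CPM (SD, n = 3) in sgZHX3-3, so the spread sat in the Empty group.

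Neither gene was called with all 6 libraries. HSPA1A had a log2 fold change of -1.24 (SE 0.386, adjusted p = 0.122 by edgeR) and HSPA1B one of -1.30 (SE 0.404, adjusted p = 0.122 by edgeR). DESeq2 called both, with adjusted p = 0.00931 and 0.00865. In the fit without Empty 1, where the SE of HSPA1A fell to 0.0929, edgeR called both. The values were -1.54 (adjusted p = 5.13e-06 by edgeR) and -1.61 (adjusted p = 3.04e-05 by edgeR). Leaving out Empty 2 and 3 put them at -0.31 (adjusted p = 0.120) and -0.34 (adjusted p = 0.178). Their coding sequences, 1926 bases each, are 99.79% identical with 4 mismatches, so the way reads were shared between the 2 genes is uncertain. Summed into 1 feature, a step added after the values were seen, they gave 183, 382 and 489 CPM in Empty and 136, 160 and 141 CPM in sgZHX3-3. The summed log2 fold change was -1.27 (SE 0.392, adjusted p = 0.120 by edgeR).

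HSPA6, another inducible HSP70 that human cells make only under strong stress, was the member with the largest fold change (chr1:161524540-161526910). It lay at 1.47, 4.87 and 6.46 CPM in Empty 1, 2 and 3, and at 0.425, 0.722 and 0.232 CPM in sgZHX3-3 1, 2 and 3. These are 69, 288 and 317 counts against 19, 36 and 14 counts. Every sgZHX3-3 library was below every Empty library, and Empty 1 stood between Empty 2 and 3 and the rest. HSPA6 fell by 3.25 on the log2 scale (SE 0.704, adjusted p = 0.0407 by edgeR). The call held without Empty 1 (-3.64, adjusted p = 6.36e-06 by edgeR). It was lost without any other single library, with adjusted p from 0.0669 to 0.122, and limma-voom did not call it (adjusted p = 0.117). Against Empty 1 alone, the value was -1.70 (adjusted p = 0.110 by edgeR). HSPA7, its near-identical relative, had 1 count in all 6 libraries together.

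**Figure D3:**
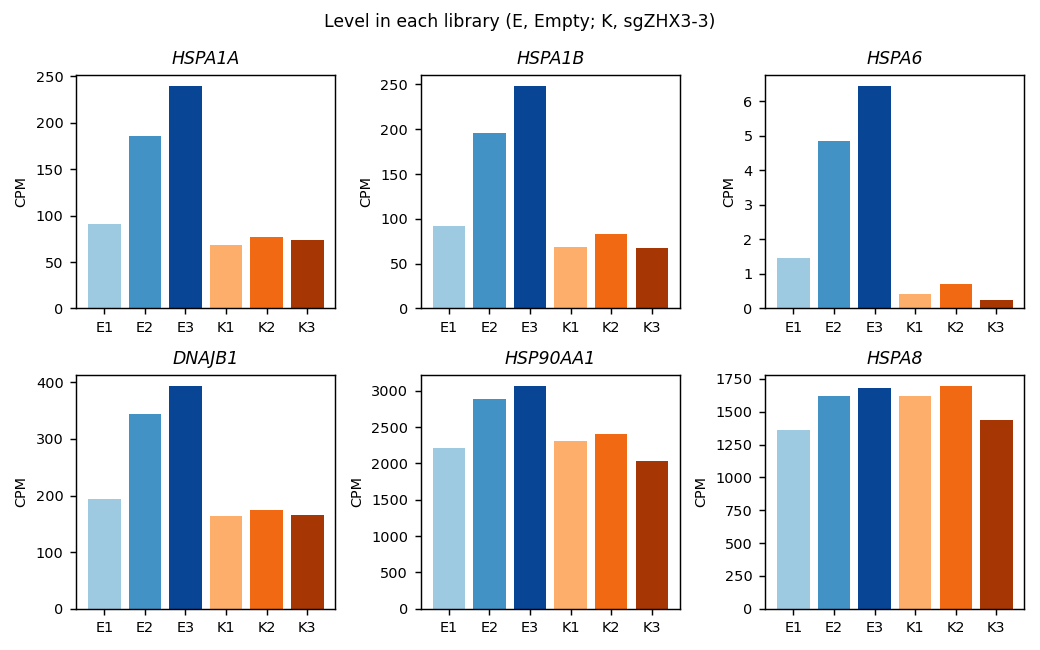
Level in CPM of 6 chaperone genes in each library (E, Empty; K, sgZHX3-3), with bars starting at 0. HSPA1A, HSPA1B, HSPA6 and DNAJB1 stand high in Empty 2 and 3, HSP90AA1 less so (2888 and 3067 CPM against 2033 to 2401 CPM in the other libraries), and HSPA8 shows no such order.

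None of the 5 other HSP70 genes was called by edgeR, DESeq2 or limma-voom, and none reached an unadjusted p below 0.05 with all 6 libraries. HSPA8, the constitutive HSP70 of the cytosol, lay at 1362, 1617 and 1685 CPM in Empty and at 1623, 1697 and 1437 CPM in sgZHX3-3. Its groups overlapped, with Empty 1 the lowest library, and its log2 fold change was 0.03 (SE 0.0812, adjusted p = 0.856 by edgeR). That sign was not stable: scaling by library totals alone gave -0.0085, and the fits without Empty 1 and without sgZHX3-3 2 gave -0.06 and -0.02. HSPA2 (-0.08), HSPA1L (0.05), HSPA12A (-0.25) and HSPA14 (-0.17, a ribosome-linked HSP70) were not called. Without Empty 1, HSPA14 was called at -0.25 (adjusted p = 0.0241 by edgeR), and with Empty 2 and 3 out it was at 0.01. HSPA1L shares 82.0% of its coding bases with HSPA1A and starts 399 bases away from it on the other strand, yet it ranged only from 3.60 to 3.95 CPM.

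The HSP110 exchange factors, which swap the nucleotide of HSP70, include 3 genes here, and none was called by edgeR, DESeq2 or limma-voom or reached an unadjusted p below 0.05. HSPH1 averaged 401 ± 55.2 CPM in Empty and 353 ± 17.9 CPM in sgZHX3-3 (SD, n = 3 each), with a log2 fold change of -0.18. HSPA4L was at -0.24 and HSPA4 at 0.08, and HSPA4 was higher in all 3 sgZHX3-3 libraries than in all 3 Empty libraries. Without Empty 1, HSPH1 (-0.29, adjusted p = 0.00268) and HSPA4L (-0.38, adjusted p = 0.00488) were called lower by edgeR. Both were slightly above 0 with Empty 2 and 3 out, at 0.06 and 0.08.

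The HSP40 proteins bring substrates to HSP70 and start its ATPase. All 8 were fitted below 0, 5 had sgZHX3-3 wholly below Empty (16.0% of all genes did), and 1 was called lower (4.98% of all genes were). That gene was DNAJB4 (chr1:77979175-78017964), an HSP40 close to DNAJB1 in sequence. It lay at 26.2, 28.6 and 31.0 CPM in Empty 1, 2 and 3 and at 20.7, 21.5 and 21.1 CPM in sgZHX3-3 1, 2 and 3. The 3 sgZHX3-3 libraries lay close together and below all Empty libraries, Empty 1 included. DNAJB4 fell by 0.44 on the log2 scale (SE 0.0739, adjusted p = 0.00245 by edgeR). Its exons overlap those of GIPC2 on the same strand, so counting by strand would not tell their reads apart there. DNAJB4 kept its call with each single library left out in turn, with adjusted p between 0.000407 and 0.0228, alone among the 7 called genes. The fit without Empty 2 and 3 gave -0.31 (adjusted p = 0.152 by edgeR).

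DNAJB1, the main heat-induced HSP40 and the usual partner of HSPA1A, ranked the 6 libraries in the same order as HSPA1A. It lay at 195, 343 and 393 CPM in Empty 1, 2 and 3 and at 164, 175 and 165 CPM in sgZHX3-3 1, 2 and 3. The groups did not overlap, and Empty 1 was nearer to the sgZHX3-3 libraries than to Empty 2 and 3. Its log2 fold change was -0.89 (SE 0.281, adjusted p = 0.124 by edgeR), so it was not called. DESeq2 called it (adjusted p = 0.0153), as did edgeR without Empty 1 (-1.13, adjusted p = 4.89e-07). Against Empty 1 alone DNAJB1 was at -0.21 (adjusted p = 0.200 by edgeR). The remaining HSP40 genes had small values, from -0.19 in DNAJA1 to -0.05 in DNAJB6. Without Empty 1, DNAJA1 (-0.24), DNAJA2 (-0.20) and DNAJA4 (-0.20) were called lower, with adjusted p of 0.00827, 0.0232 and 0.0385 by edgeR.

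BAG proteins release the nucleotide of HSP70 and link it to other machinery. BAG2, an inhibitor of HSP70-linked ubiquitination, lay at 17.2, 17.0 and 16.8 CPM in Empty 1, 2 and 3 and at 14.9, 14.5 and 13.9 CPM in sgZHX3-3 1, 2 and 3. The groups were apart and Empty 1 was the highest library, so BAG2 did not share the order seen in HSPA1A. BAG2 exons overlap those of RAB23 on the other strand. BAG2 fell by 0.24 on the log2 scale (SE 0.0720, adjusted p = 0.0478 by edgeR). Leaving out any 1 of the 6 libraries ended the call, with adjusted p from 0.0513 without Empty 1 to 0.153 without sgZHX3-3 2. Against Empty 1 alone the value was nearly the same, at -0.26 (adjusted p = 0.313 by edgeR).

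BAG3, the stress-induced member that works with HSPB8 in selective autophagy, lay at 13.6, 18.4 and 20.2 CPM in Empty 1, 2 and 3 and at 12.0, 14.2 and 13.3 CPM in sgZHX3-3. Empty 1 fell inside the sgZHX3-3 range, and the log2 fold change of -0.40 (SE 0.125, adjusted p = 0.0555 by edgeR) was not called. Without Empty 1 it was called at -0.55 (adjusted p = 0.00106 by edgeR), and with Empty 2 and 3 out it was at -0.05. BAG1 (-0.03) and BAG5 (-0.15) were not called in any of these 3 fits.

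The HSP90 genes ranked highest of the set in CPM per kilobase of exon. This scale allows only a rough comparison between genes, because the length counts every annotated exon, used in these cells or not. On it HSP90AA1 stood at 519 CPM in Empty, HSP90AB1 at 453 and HSPA8 at 321. DNAJA1 (156), HSPD1 (145) and PTGES3 (137) followed, and HSPA6 (1.80), HSPA12A (0.350) and HSPB8 (0.205) were near the bottom. The inducible HSPA1A stood at 69.4 CPM per kilobase in Empty and 29.4 in sgZHX3-3.

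**Figure D4:**
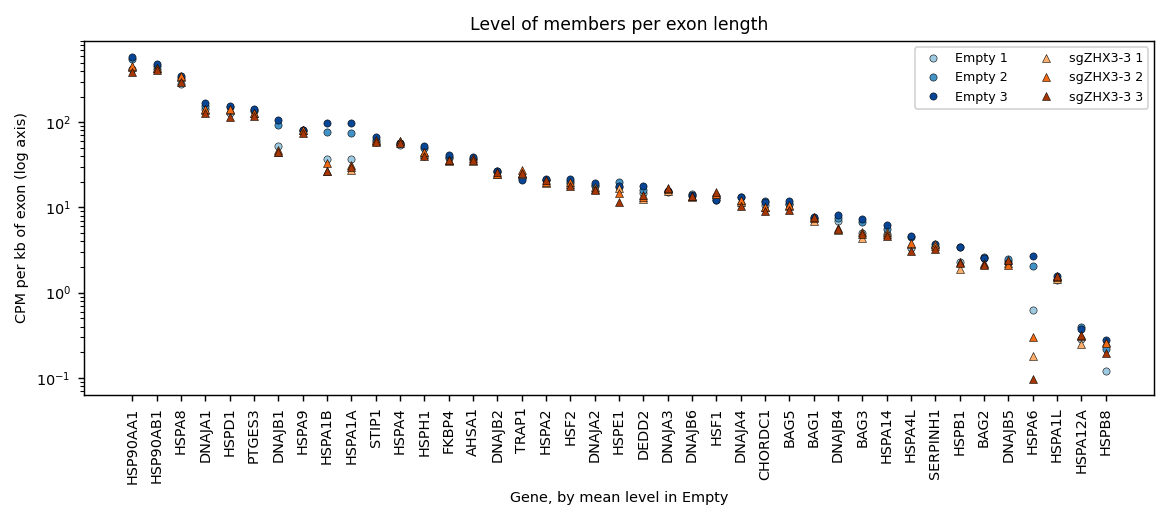
Level of each tested chaperone gene in each library in CPM per kilobase of exon, on a log axis, ordered by the mean in Empty. HSP90AA1, HSP90AB1 and HSPA8 stand at 281 or more in every library, and the libraries spread most in HSPA6, from 0.0980 to 2.72.

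HSP90AA1, the stress-responsive HSP90 of the cytosol, lay at 2211, 2888 and 3067 CPM in Empty 1, 2 and 3 and at 2316, 2401 and 2033 CPM in sgZHX3-3 1, 2 and 3. Empty 1 fell inside the sgZHX3-3 range. Its log2 fold change of -0.27 (SE 0.111, adjusted p = 0.137 by edgeR) was not called. It was called without Empty 1 (-0.40, adjusted p = 0.00125 by edgeR) and turned to 0.03 with Empty 2 and 3 out. HSP90AB1, the constitutive form, lay at 1241, 1376 and 1432 CPM in Empty and at 1275, 1300 and 1219 CPM in sgZHX3-3. Again Empty 1 was among the sgZHX3-3 libraries, and the change of -0.09 (adjusted p = 0.336 by edgeR) became -0.15 without Empty 1 (adjusted p = 0.0497 by edgeR) and 0.03 with Empty 2 and 3 out.

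Among the HSP90 partners, CHORDC1 was called. It encodes a cochaperone with zinc-binding CHORD domains, and its promoter holds the array of units shown above. CHORDC1 lay at 112, 126 and 122 CPM in Empty 1, 2 and 3 and at 107, 108 and 97.1 CPM in sgZHX3-3 1, 2 and 3. The groups were apart by a narrow gap between Empty 1 and the sgZHX3-3 libraries. CHORDC1 fell by 0.21 on the log2 scale (SE 0.0625, adjusted p = 0.0461 by edgeR), and by 0.25 without Empty 1 (adjusted p = 0.00776 by edgeR). Without any other single library it was not called (adjusted p from 0.0582 to 0.190), nor with Empty 2 and 3 out (-0.11, adjusted p = 0.586 by edgeR). PTGES3, the p23 cochaperone, was at -0.14, and FKBP4, an immunophilin of steroid receptor complexes, at -0.12. Their groups did not overlap and neither was called, but without Empty 1 both were, at -0.16 and -0.15. STIP1, which joins HSP70 to HSP90, and AHSA1, which activates the HSP90 ATPase, were at -0.04 and -0.05 and were not called in either fit.

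Small heat shock proteins bind unfolding proteins without ATP, and they were scarce in these cells. HSPB1 (HSP27) lay at 3.70, 5.58 and 5.62 CPM in Empty 1, 2 and 3 and at 3.11, 3.69 and 3.65 CPM in sgZHX3-3 1, 2 and 3. Empty 1 was just above the highest sgZHX3-3 library, and the log2 fold change of -0.51 (SE 0.161, adjusted p = 0.0559 by edgeR) was not called. Without Empty 1 it was called at -0.68 (adjusted p = 0.00264 by edgeR). Against Empty 1 alone HSPB1 was at -0.08. HSPB8 had between 16 and 39 counts per library and was not called (0.21, SE 0.305).

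Of the 5 mitochondrial members, 1 was called, and it was higher in sgZHX3-3. TRAP1, the mitochondrial HSP90, lay at 120, 114 and 109 CPM in Empty 1, 2 and 3 and at 128, 142 and 134 CPM in sgZHX3-3 1, 2 and 3. All sgZHX3-3 libraries were above all Empty libraries, and Empty 2 and 3 were the lowest. TRAP1 was higher by 0.24 on the log2 scale (SE 0.0582, adjusted p = 0.0196 by edgeR). The call was lost without Empty 2 (adjusted p = 0.0758), Empty 3 (0.116) or sgZHX3-3 2 (0.128), and with Empty 2 and 3 out (0.17, adjusted p = 0.360 by edgeR). Its exons overlap those of DNASE1.

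HSPD1 (HSP60), the chamber that folds imported mitochondrial proteins, lay at 543, 641 and 660 CPM in Empty and at 586, 603 and 490 CPM in sgZHX3-3. The groups overlapped, and its log2 fold change was -0.14 (adjusted p = 0.336 by edgeR). HSPE1 (HSP10), its lid, lies head to head with HSPD1 and shares exonic bases with it on the opposite strand. HSPE1 exons also overlap HSPE1-MOB4 on the same strand, which had 6 counts in sgZHX3-3 3 and 0 elsewhere. How reads on those shared bases were counted is not given, so the HSPE1 level is uncertain. HSPE1 lay at 34.1, 38.9 and 35.5 CPM in Empty and at 33.2, 29.1 and 22.7 CPM in sgZHX3-3, with sgZHX3-3 3 the lowest library. Its change of -0.36 (SE 0.116, adjusted p = 0.0694 by edgeR) was not called. It was called by edgeR without Empty 1 (-0.40, adjusted p = 0.0465) and without sgZHX3-3 1 (-0.49, adjusted p = 0.0171), and was at -0.22 without sgZHX3-3 3 (adjusted p = 0.137). HSPA9, the mitochondrial HSP70, was at -0.03 and DNAJA3, its HSP40, at 0.08, and neither was called.

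DEDD2 was called lower. It lay at 38.5, 41.8 and 46.5 CPM in Empty 1, 2 and 3 and at 33.1, 34.4 and 37.2 CPM in sgZHX3-3 1, 2 and 3. The groups were apart, with Empty 1 just above sgZHX3-3 3. DEDD2 fell by 0.27 on the log2 scale (SE 0.0766, adjusted p = 0.0349 by edgeR) and by 0.33 without Empty 1 (adjusted p = 0.00691 by edgeR). The call was lost without Empty 2 (adjusted p = 0.107), Empty 3 (0.201), sgZHX3-3 1 (0.0961) or sgZHX3-3 2 (0.133), and with Empty 2 and 3 out (-0.14, adjusted p = 0.566 by edgeR). SERPINH1 (HSP47), the collagen chaperone, was at -0.02 and its groups overlapped.

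Genes that work beside these chaperones were read from 7 further lists of 91 genes, of which 90 were in the table and 82 were tested. Of the 82, 8 were lower (9.76%) and 2 higher (2.44%), against 4.98% and 7.11% of all genes, with a median of -0.07. Of the 8 subunits of TRiC, the chaperonin that folds actin and tubulin, CCT2 alone was called (-0.18, adjusted p = 0.0461). Prefoldin, which feeds TRiC, had 1 of 6 called, VBP1 (-0.23, adjusted p = 0.0181). Of 20 further cochaperones, SUGT1 (-0.26, adjusted p = 0.0209), an HSP90 partner at kinetochores, and HSPA13 (-0.24, adjusted p = 0.0271), a microsomal HSP70, were lower. Of 24 other J-domain proteins, DNAJC9, which also binds histones, was lower (-0.38, adjusted p = 0.00170). None of 3 other small heat shock proteins was called, and 1 had an unadjusted p below 0.05. All p-values in this paragraph come from edgeR's quasi-likelihood test over all genes.

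Of 9 mitochondrial cochaperones and proteases, LONP1, a matrix protease, was higher (0.25, adjusted p = 0.00484 by edgeR). It lay at 225, 219 and 224 CPM in Empty and at 261, 266 and 270 CPM in sgZHX3-3, so here all 3 Empty libraries stood together. The list of regulators and other heat shock targets had 12 genes, 3 lower and 1 higher. SQSTM1, the autophagy receptor p62, lay at 800.2, 972 and 1064 CPM in Empty 1, 2 and 3 and at 686, 712 and 703 CPM in sgZHX3-3 1, 2 and 3. It fell by 0.43 on the log2 scale (adjusted p = 0.00654 by edgeR), and Empty 1 again lay between Empty 2 and 3 and the sgZHX3-3 libraries. PPP1R15A (GADD34, -0.41, adjusted p = 0.0315) and ZFAND2A (AIRAP, -0.40, adjusted p = 0.0459) were lower by the same test. CLU, which encodes the secreted chaperone clusterin, was higher (0.22, adjusted p = 0.0482 by edgeR) and was named after its value was seen.

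DNAJC9, SQSTM1 and LONP1 kept their calls with each single library left out. CCT2, VBP1, SUGT1, HSPA13, PPP1R15A, ZFAND2A and CLU each lost theirs without Empty 2 (adjusted p from 0.0855 to 0.200) and without Empty 3 (0.0748 to 0.211). Without Empty 1, 15 of the 82 were lower (18.3%, against 9.14% of all genes) and 5 higher (6.10%, against 10.9%). With Empty 2 and 3 out, the median log2 fold change of the 82 was -0.04. DNAJC9 was then at -0.28, SQSTM1 at -0.19 and LONP1 at 0.24. In that fit the ubiquitin gene UBB, named after its value was seen, was at -0.34. UBB lay at 386, 302 and 389 CPM in Empty 1, 2 and 3 and at 294, 306 and 315 CPM in sgZHX3-3 1, 2 and 3. Its groups overlapped. It was not called with all 6 libraries (-0.24, adjusted p = 0.0866 by edgeR) or without Empty 1 (-0.18, adjusted p = 0.175 by edgeR).

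Set side by side as sums, the role groups differed in how far Empty 2 and 3 stood from Empty 1. The inducible HSP70 genes summed to 2.10 and 2.69 times the Empty 1 level in Empty 2 and 3, and to 0.741, 0.871 and 0.766 times that level in sgZHX3-3 1, 2 and 3. Small heat shock proteins, a sum of only 3.87 to 6.42 CPM, reached 1.54 and 1.59 times in Empty 2 and 3. HSP40 genes reached 1.16 and 1.25 times there, and HSP90 with its cochaperones 1.19 and 1.25 times. In sgZHX3-3 these 3 sums ranged from 0.958 to 1.10, from 0.912 to 0.954 and from 0.940 to 1.05 times. The other HSP70 genes stood at 1.17 and 1.22 times in Empty 2 and 3. In sgZHX3-3 1, 2 and 3 they stood at 1.17, 1.215 and 1.05 times. TRiC reached 1.02 and 1.06 times in Empty 2 and 3, and prefoldin 0.979 and 0.991 times. The 7 beta cell markers stood the other way round: they summed to 37702, 30090 and 29829 CPM in Empty 1, 2 and 3 and to 34440, 38090 and 42565 CPM in sgZHX3-3 1, 2 and 3. CHGA, a granin gene of neuroendocrine cells in general, made up most of that sum, at 23272 to 33205 CPM. The other 6 markers summed to 8255, 6624 and 6556 CPM in Empty 1, 2 and 3 and to 7820, 8470 and 9359 CPM in sgZHX3-3 1, 2 and 3, so Empty 2 and 3 were again the lowest. The 5 acinar markers summed to 33.1 to 38.6 CPM in Empty and 42.1 to 45.2 CPM in sgZHX3-3. Almost all of that was CPA1, with PNLIP at 0 and PRSS1, CELA3A and AMY2A at or near 0. The part of the beta cell, acinar or immune markers in the chaperone values was not tested.

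**Figure D5:**
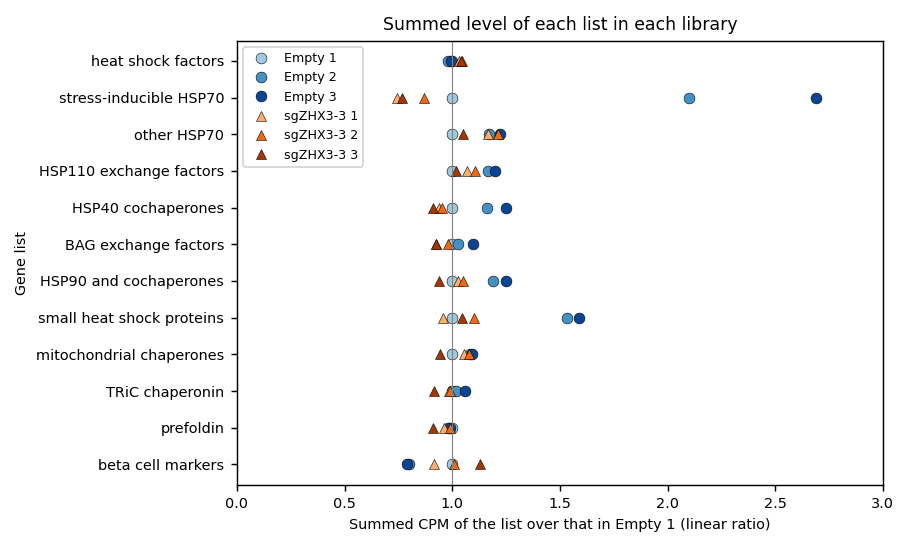
Summed CPM of each role group, of TRiC, of prefoldin and of 7 beta cell markers in each library, as a linear ratio to Empty 1. The inducible HSP70 sum stands at 2.10 and 2.69 in Empty 2 and 3 and below 1 in the 3 sgZHX3-3 libraries, while the beta cell marker sum stands at 0.798 and 0.791 in Empty 2 and 3.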

How the data were processed

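Directional RNA libraries of 6 EndoC-βH1 samples were sequenced, per the labels' protocols. The submitters' processing notes name STAR, featureCounts and the build hg38. Not given in the sources used here are their versions, the annotation, whether counting used strand, and how multiply mapped reads were handled. The authors deposited raw counts per gene. Columns were matched to libraries by their group and letter. Here genes with too few counts were dropped (edgeR filterByExpr, minimum count 10, total 15), libraries scaled by TMM, and groups compared with edgeR 4.0.16 (robust quasi-likelihood test, R 4.3.3), adjusted over 16199 genes and called below 0.05. The test was checked on simulated counts. CPM used TMM-scaled totals. Exon lengths and coordinates came from GENCODE on GRCh38, promoters from RefSeq.

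The members and gene lists were chosen with earlier results of these data known. Named were all members, ZHX3 and up to 3 called genes per further list with the smallest adjusted p; exceptions are marked. Alternatives were other scaling and filters, DESeq2 1.42.0, limma-voom (limma 3.58.1), a replicate block, a threshold of 0.01 and leaving libraries out.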

Additional observations from a re-analysis of the deposited data

How the results depend on the processing

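Of 574 gene values recomputed under the alternatives, 477 kept direction and side of the threshold, 44 lost a call, 33 gained one, and 20, in 14 genes, changed sign. The 5 lower and 2 higher chaperone genes became 11 and 1 when scaled by library totals, which moved the median of all genes to -0.04, and 12 lower with DESeq2. At an adjusted p below 0.01 they were 1 and 0. With single libraries left out they ranged from 1 to 20 lower and from 0 to 2 higher. Leaving out both Empty 2 and 3 gave 0 and 0, and the median log2 fold change of -0.14 moved to -0.035. Over all genes, 807 lower became 1272 with library totals, 194 at 0.01, 184 to 1499 with single libraries out and 40 with Empty 2 and 3 out. The 1151 higher became 467, 474 to 1792 and 209 at 0.01, with single libraries out and with Empty 2 and 3 out. With the replicate number as a block there were 3 lower chaperone genes, of which 2 were also called without it, and 0 higher, and 239 lower and 516 higher of all genes. Same-numbered libraries correlated at -0.14, 0.07 and -0.14 in their deviations from the group means, and other pairs at -0.15 to 0.23. With 3 libraries per group these values cannot show whether same-numbered libraries were handled together. Sign changes were all in uncalled values. HSPA8 was at -0.0085 with library totals. With single libraries out, HSPA8 ranged from -0.056 to 0.094, HSPB8 from -0.044 to 0.47, STIP1 from -0.092 to 0.017, SERPINH1 from -0.066 to 0.035, BAG1 from -0.059 to 0.011 and HSPA9 from -0.052 to 0.022. The sign turned without Empty 1 in HSPA8 and HSPB8, without Empty 3 in STIP1 and SERPINH1, without sgZHX3-3 1 in BAG1, without sgZHX3-3 2 in HSPA8 and without sgZHX3-3 3 in HSPA9 and SERPINH1. Without Empty 2 and 3, HSPA12A was at 0.055, HSPA14 at 0.0073, HSPH1 at 0.060, HSPA4L at 0.077, DNAJA4 at 0.056, HSP90AA1 at 0.026, HSP90AB1 at 0.028, STIP1 at 0.070, HSPD1 at 0.043, HSPA9 at 0.012 and SERPINH1 at 0.026. The cause of these changes was not tested. Depth limits HSPA6 in sgZHX3-3 (14 to 36 counts) and HSPB8 (16 to 39 counts).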
